A study of Mus musculus with 7 samples.

Results

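Pericytes and vascular smooth muscle cells are the mural cells of blood vessels, which wrap the endothelium of capillaries and of arterioles. Pericytes depend on platelet-derived growth factor from the endothelium, which they sense through the receptor encoded by Pdgfrb, and the retina is known for a dense pericyte coat. Smooth muscle cells contract through actin and myosin isoforms of their own, and angiotensin II (Ang II) is a peptide hormone that makes them contract. The genes described here are 10 mural cell genes, found by symbol among the 54532 genes of the count table, where each symbol occurs in a single row. They comprise 5 pericyte genes (Pdgfrb, Rgs5, Cspg4, Kcnj8 and Abcc9), 4 contractile genes (Acta2, Tagln, Myh11 and Cnn1), and Notch3, which both cell types use.

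The series asked how the retinal transcriptome of mice infused with Ang II compares with that of mice infused with saline, at day 28. It holds 4 Ang II libraries and 3 saline libraries of poly-A selected retina RNA. The series text gives all the mice as ApoE-/-, a strain without apolipoprotein E that develops atherosclerosis, whereas the sample labels of both groups give the genotype as WT, and counts per gene do not settle which holds. Apoe had reads in every library, at 15.46 to 25.67 CPM in Ang II and 10.51 to 18.83 CPM in saline, which is no check where a deletion spares other exons. The sources used here give neither age, dose nor the number of animals behind a library, so p-values measure the spread between these libraries, which may be technical. Total counts per library were 15374638 to 17563493 in Ang II and 14655431 to 16679829 in saline. Levels are given as CPM, read counts relative to library sizes scaled by the trimmed mean of M values (TMM), on which a single read was worth 0.0567 to 0.0701 CPM. The 10 rod markers checked together took 58080 to 69970 CPM in Ang II and 70910 to 76450 CPM in saline, and these sums did not overlap. Saline replicate 2 stood apart from the other 6 libraries on the first principal component, which held 33.3% of the variance. It also had the lowest total count and the fewest genes detected, 21260 against 24024 to 24846 in the other 6. In whole tissue, fewer cells of a type and less RNA per cell cannot be told apart.

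No mural cell gene passed the test. With edgeR's quasi-likelihood test, 0 of the 8 members that could be tested passed an adjusted p of 0.05, where 0 of all 17078 genes tested passed (0%). An unadjusted p under 0.05 was found for 0 of these 8 members and for 4.62% of all genes tested. The 2 groups overlapped in all 10 members, whereas they did not overlap in 5.91% of all genes tested. Of the 8 tested members, 5 lay above 0, where 48.9% of all genes tested did, and 3 below, with a median log2 fold change of 0.04 (Ang II over saline) beside -0.01 over all genes tested. DESeq2 called 0.200% of its genes and limma-voom 0.831%, and with either tool 0 members were called. The log2 fold changes of limma-voom, which weights libraries by quality, had the opposite sign for Pdgfrb (-0.05), Cspg4 (-0.04) and Abcc9 (0.15). They were farther from 0 than those of edgeR given below for Notch3 (-0.25), Acta2 (0.55), Myh11 (-0.52), Kcnj8 (0.30) and Rgs5 (0.04). Tagln and Cnn1 had too few reads to enter the test.

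The regulatory sequence upstream of 2 contractile genes is shown, those of Acta2 and Cnn1, the contractile members with an entry in the RefSeq promoter set used here. Contractile genes are known targets of serum response factor, which binds the CArG box, and of its cofactor myocardin. The 250 bases before each gene's RefSeq start were taken from this set (GRCm38.p6, the assembly also called mm10), which held 7 of the 10 members. Pdgfrb, Myh11 and Tagln had no entry in it, so their upstream sequences were not searched. They were searched for the CArG box, a 10-base palindromic motif that reads alike on both strands, and capitals mark matches at most 1 base away from it.
Acta2 (chr19:34255374-34255623, minus strand): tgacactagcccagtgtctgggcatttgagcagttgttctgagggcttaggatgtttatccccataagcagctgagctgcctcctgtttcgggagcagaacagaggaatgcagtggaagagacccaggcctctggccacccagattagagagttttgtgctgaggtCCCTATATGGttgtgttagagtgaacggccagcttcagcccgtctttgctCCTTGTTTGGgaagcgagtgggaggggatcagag
Cnn1 (chr9:22099003-22099252, plus strand): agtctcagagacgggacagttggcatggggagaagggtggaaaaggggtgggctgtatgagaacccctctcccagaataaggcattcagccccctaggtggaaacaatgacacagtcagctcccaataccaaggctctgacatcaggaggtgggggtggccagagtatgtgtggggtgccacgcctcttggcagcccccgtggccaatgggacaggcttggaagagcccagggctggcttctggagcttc
The Acta2 window held 2 such matches, which began at positions -84 and -34, where -1 is the base before the gene's RefSeq start. The Cnn1 window held 0. Among the other member windows, that of Cspg4 held 2 overlapping matches, at -238 and -237, that of Kcnj8 held 1, at -46, and those of Rgs5, Abcc9 and Notch3 held 0. Of the 32851 RefSeq windows of this length, 18.6% held at least 1 match within 1 base and 3.0% held 2 or more. Exact matches were in 1.47%, with none among the 7 member windows. RefSeq starts differ from those of the count table for some members. The count table begins Acta2 at 34255336 on the minus strand, so a gap separates its window from that start. It begins Cnn1 at 22099216 on the plus strand, so the Cnn1 window runs into the gene, as do those of Cspg4 and Abcc9. A match is a description of letters, and binding was not tested.

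**Figure D1:**
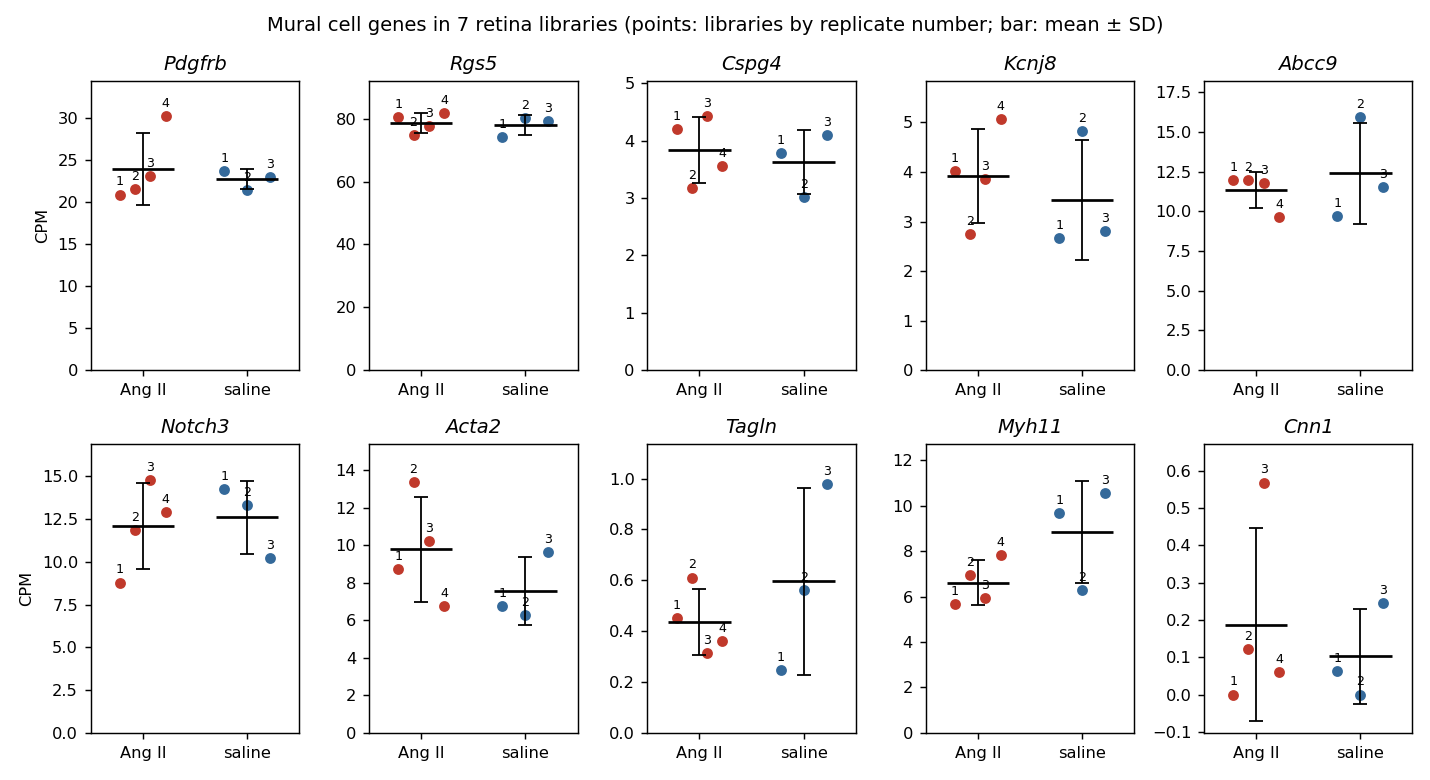
Level of each of the 10 mural cell genes in CPM (vertical axes), with Ang II libraries in red on the left of each panel and saline libraries in blue on the right. Points are libraries with their replicate numbers, and black bars are the mean ± SD. The groups overlap in every panel, from Rgs5 near 78.7 CPM to Cnn1 with at most 0.569 CPM.

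Among the pericyte genes, Pdgfrb (ENSMUSG00000024620, mm10 chromosome 18, 61045150 to 61085061, plus strand) encodes the receptor that recruits pericytes to vessels. Its level was 20.9, 21.6, 23.1 and 30.2 CPM in Ang II replicates 1 to 4, against 23.8, 21.5 and 23.0 CPM in saline replicates 1 to 3. Ang II replicate 4 was the highest of the 7 libraries and Ang II replicate 1 the lowest, so the saline libraries lay inside the Ang II range. The means were 23.9 ± 4.28 CPM in the Ang II group (n = 4, SD) against 22.7 ± 1.19 CPM in the saline group (n = 3, SD), and edgeR gave a log2 fold change of 0.07 ± 0.14 (SE, adjusted p = 0.985). Without Ang II replicate 4 the log2 fold change was -0.06. The 95% interval of the fold ran from 0.856 to 1.30.

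Rgs5 (ENSMUSG00000026678, chromosome 1, 169655501 to 169695813, plus strand) encodes a regulator of G protein signalling that marks pericytes and acts downstream of receptors such as those for Ang II. It was the most abundant member, at 80.4, 74.9, 77.6 and 81.8 CPM in Ang II replicates 1 to 4, against 74.3, 80.3 and 79.2 CPM in saline replicates 1 to 3. The libraries of both groups were interleaved, and the highest library exceeded the lowest by 1.10-fold. The log2 fold change was 0.01 ± 0.08 (SE, edgeR adjusted p = 0.996), and the 95% interval of the fold ran from 0.892 to 1.14. Its coefficient of variation over the 7 libraries, 3.65%, was the smallest of the members, where counting error alone would give 2.81%.

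Cspg4 (ENSMUSG00000032911, chromosome 9, 56865033 to 56899870, plus strand), which encodes the NG2 proteoglycan of the pericyte surface, had few reads for its length. It was at 4.20, 3.18, 4.43 and 3.56 CPM in Ang II replicates 1 to 4, against 3.78, 3.01 and 4.09 CPM in saline replicates 1 to 3. Saline replicate 2 was the lowest library and Ang II replicate 3 the highest, within counts of 43 to 74. The log2 fold change was 0.08 ± 0.24 (SE, edgeR adjusted p = 0.989), and -0.04 without saline replicate 2. NG2 is also known from oligodendrocyte precursor cells. Pdgfra, a marker of those cells that is also among the fibroblast markers used here, does not give the level of either cell type alone. It was at 9.31 ± 0.763 CPM in the Ang II group (n = 4, SD) against 7.93 ± 1.37 CPM in the saline group (n = 3, SD).

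Kcnj8 and Abcc9 encode the pore and the sulfonylurea receptor subunit of the vascular ATP-sensitive potassium channel, which relaxes mural cells when it opens. They are neighbours on chromosome 6, Kcnj8 (ENSMUSG00000030247) at 142564837 to 142571614 and Abcc9 (ENSMUSG00000030249) at 142587862 to 142702315, both on the minus strand. Kcnj8 was at 4.03, 2.75, 3.86 and 5.07 CPM in Ang II replicates 1 to 4, against 2.66, 4.84 and 2.81 CPM in saline replicates 1 to 3. Saline replicate 2 was second to Ang II replicate 4, and the other saline libraries were near Ang II replicate 2. Its log2 fold change was 0.20 ± 0.29 (SE, edgeR adjusted p = 0.983). It was 0.52 without saline replicate 2 and 0.05 without saline replicate 1.

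Abcc9 was at 12.0, 12.0, 11.8 and 9.66 CPM in Ang II replicates 1 to 4, against 9.72, 15.9 and 11.6 CPM in saline replicates 1 to 3. Saline replicate 2 was the highest library, and the Ang II libraries lay between 9.66 and 12.0 CPM. Its log2 fold change was -0.13 ± 0.18 (SE, edgeR adjusted p = 0.983), and 0.09 without saline replicate 2. Per kilobase of gene model, the Kcnj8 level over the Abcc9 level was 1.11, 0.754, 1.08 and 1.73 in Ang II replicates 1 to 4, against 0.900, 0.999 and 0.800 in saline replicates 1 to 3. Ang II replicate 4 had the highest ratio and Ang II replicate 2 the lowest. The related subunit genes Kcnj11 and Abcc8, which form the channel of neurons and pancreatic beta cells, were at 2.65 and 2.34 CPM per kb over the 7 libraries. Their log2 fold changes were -0.13 ± 0.20 and -0.17 ± 0.14 (SE), with edgeR adjusted p of 0.983 and 0.982.

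Notch3 (ENSMUSG00000038146, chromosome 17, 32120820 to 32166880, minus strand) encodes the Notch receptor of mural cells, needed for arterial smooth muscle. It was at 8.79, 11.9, 14.8 and 12.9 CPM in Ang II replicates 1 to 4, against 14.3, 13.3 and 10.2 CPM in saline replicates 1 to 3. The highest and the lowest library were both from the Ang II group. The log2 fold change was -0.06 ± 0.19 (SE, edgeR adjusted p = 0.989), and 0.07 without Ang II replicate 1. In GENCODE M21, 6.0% of its exon bases overlapped the noncoding gene Gm17276 on the opposite strand, and the library protocol names no step that marks strand.

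Of the contractile genes, Acta2 (ENSMUSG00000035783, chromosome 19, 34241090 to 34255336, minus strand) encodes alpha smooth muscle actin, the actin of contractile mural cells. It was at 8.73, 13.4, 10.2 and 6.76 CPM in Ang II replicates 1 to 4, against 6.75, 6.31 and 9.66 CPM in saline replicates 1 to 3. All 4 Ang II libraries lay above saline replicates 1 and 2, replicate 4 barely so (6.759 CPM against 6.751 CPM in saline replicate 1). Saline replicate 3 lay inside the Ang II range. The means were 9.78 ± 2.79 CPM in the Ang II group (n = 4, SD) against 7.57 ± 1.82 CPM in the saline group (n = 3, SD), and the log2 fold change from edgeR was 0.37 ± 0.23 (SE, adjusted p = 0.982), with a 95% interval of the fold from 0.912 to 1.82. Leaving out Ang II replicate 2 gave a log2 fold change of 0.18, and leaving out saline replicate 3 gave 0.59.

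Pigment epithelium and melanocyte markers were set beside Acta2, because their sum separated the groups. The 13 markers, of the pigmented layer behind the retina and of melanocytes, summed to 1306, 1356, 1828 and 1036 CPM in Ang II replicates 1 to 4. In saline replicates 1 to 3 they summed to 206.5, 240.5 and 949.4 CPM. Rgr and Ttr held most of this sum, on average 538 and 508.8 of 1381 CPM in Ang II and 172.7 and 163.8 of 465.5 CPM in saline. The groups did not overlap in this sum, and saline replicate 3, the saline library with most Acta2, was also the one with most of these markers. All 13 were tested, 0 were at 0 in every library, 12 lay above 0, and 0 passed. In 7 of 13 every Ang II library was above every saline library, which held for 3.18% of all genes tested. Tyr, the tyrosinase gene of pigment synthesis, had a log2 fold change of 1.90 ± 0.34 (SE, edgeR adjusted p = 0.312). In the edgeR fit without the filter on low counts, which called 98 of 30590 genes, its adjusted p was 1.19e-11. The pigment cell regulator gene Mitf was at 0.51 ± 0.14 and the opsin relative Rrh at 0.38 ± 0.13 on the log2 scale (SE). Their part in the Acta2 values was not tested. Acta2 shared 0.33% of its 50-base words with transcripts of other genes, so near copies touch few positions of it.

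Myh11 (ENSMUSG00000018830, chromosome 16, 14194535 to 14291372, minus strand), the smooth muscle myosin heavy chain gene and a specific marker of contractile smooth muscle, lay the other way. It was at 5.67, 6.97, 5.94 and 7.85 CPM in Ang II replicates 1 to 4, against 9.66, 6.31 and 10.6 CPM in saline replicates 1 to 3. Saline replicates 1 and 3 exceeded every Ang II library, and saline replicate 2 lay inside the Ang II range. The means were 6.61 ± 0.996 CPM in the Ang II group (n = 4, SD) against 8.85 ± 2.25 CPM in the saline group (n = 3, SD). Its log2 fold change was -0.42 ± 0.21 (SE, edgeR adjusted p = 0.982), with the smallest unadjusted p of the tested members, 0.0625, and a 95% interval of the fold from 0.546 to 1.02. Without saline replicate 2 the log2 fold change was -0.62, and without saline replicate 3 it was -0.27.

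Tagln (ENSMUSG00000032085, chromosome 9, 45929619 to 45936058, minus strand), the gene of the actin-binding protein transgelin, had 8, 10, 5 and 6 counts in Ang II replicates 1 to 4, and 4, 8 and 16 counts in saline replicates 1 to 3. Saline replicate 3 was the highest library, and both groups spanned low counts. In GENCODE M21, 67.9% of the exon bases of Tagln overlapped exons of Pcsk7 and Gm48529 on the opposite strand. How reads that match several genes were counted is not given in the sources used here, and the library protocol names no step that marks strand. Of its 50-base words, 47.56% also occur in transcripts of these genes. Reads in the shared stretches cannot be assigned to 1 gene, so the level of Tagln is uncertain. Mean levels were 0.436 ± 0.130 CPM in the Ang II group (n = 4, SD) against 0.596 ± 0.366 CPM in the saline group (n = 3, SD), and the saline mean was 0.404 CPM without replicate 3.

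Cnn1 (ENSMUSG00000001349, chromosome 9, 22099216 to 22109630, plus strand) encodes calponin, an actin-binding protein of mature smooth muscle. It had 0, 2, 9 and 1 counts in Ang II replicates 1 to 4, and 1, 0 and 4 counts in saline replicates 1 to 3. A count of 0 allows up to 0.170 CPM in Ang II replicate 1 and up to 0.210 CPM in saline replicate 2, for counting error alone. Of the 12 Ang II counts, 9 came from replicate 3, and without it the Ang II mean was 0.0609 CPM, against 0.102 CPM in saline. The exons of Cnn1 overlapped no other gene and shared 0 of its 50-base words, so the overlap found for Tagln has no counterpart here.

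**Figure D2:**
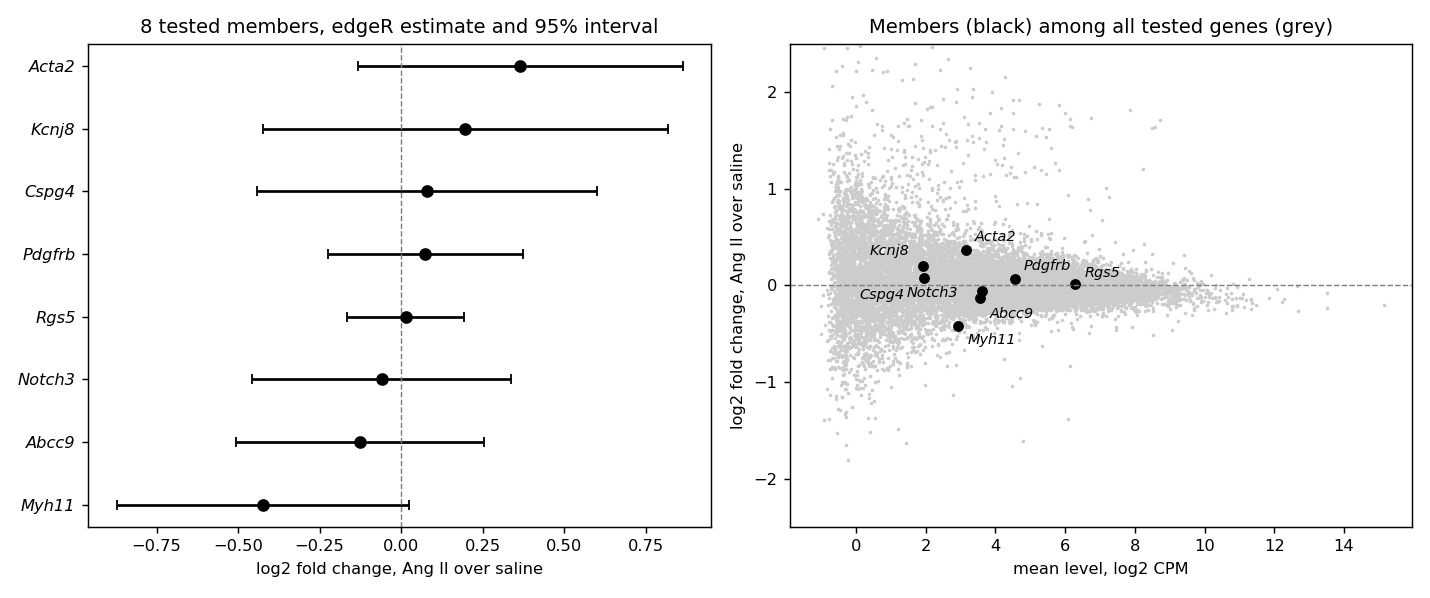
Left, log2 fold change (Ang II over saline, horizontal axis) of the 8 tested members with 95% intervals from edgeR, every one of which includes 0. Right, the same log2 fold changes (vertical axis) against mean level in log2 CPM for the members in black and all 17078 tested genes in grey, with the vertical axis limited to 2.5 in either direction, which leaves out 25 genes. Acta2 at 0.37 and Myh11 at -0.42 are the outermost members.

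Compared per kilobase of gene model, levels spanned from Rgs5 at 17.2 ± 0.629 CPM per kb (SD, n = 7 libraries) to Cnn1 at 0.0552 ± 0.0740 CPM per kb. Rgs5 was 3.47-fold above the next member, Acta2 (4.96 ± 1.42 CPM per kb), and their ranges did not overlap. Acta2 and Pdgfrb (4.28 ± 0.579 CPM per kb) overlapped in range. Both lay above Notch3 (1.53 ± 0.270), Kcnj8 (1.46 ± 0.395) and Abcc9 (1.41 ± 0.248), whose levels in CPM per kb overlapped one another. Myh11 followed at 0.996 ± 0.250 CPM per kb and overlapped Abcc9 in range, while Cspg4 (0.314 ± 0.0444) and Tagln (0.254 ± 0.124) lay lower and overlapped each other. In summed level, the 5 pericyte members took 114.3 to 130.3 CPM in Ang II and 114.3 to 125.5 CPM in saline, and the 4 contractile members took 14.9 to 21.1 CPM in Ang II and 13.2 to 21.5 CPM in saline.

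**Figure D3:**
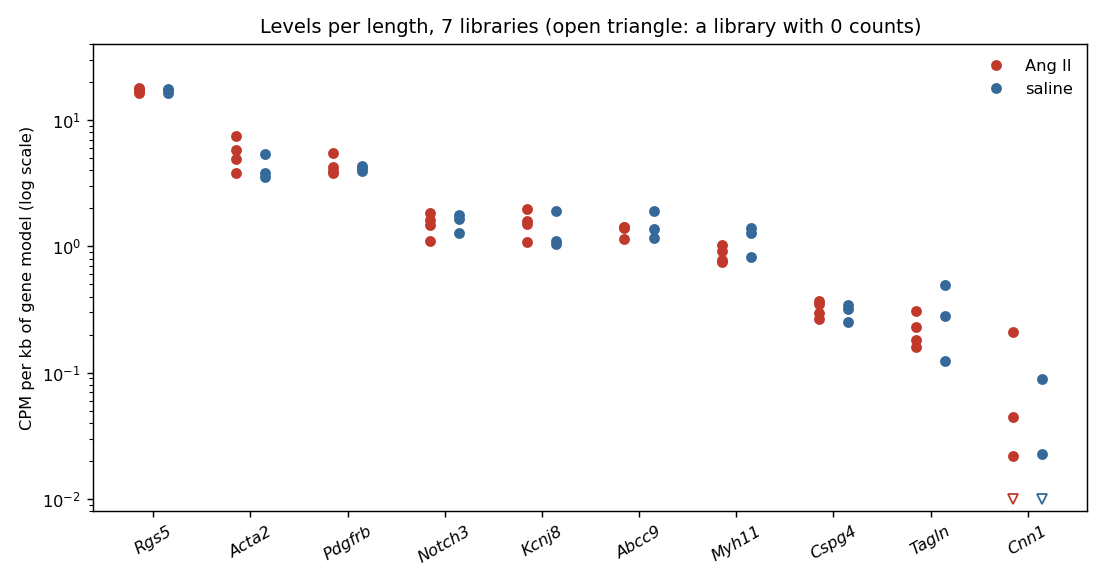
Level per kilobase of gene model (CPM per kb, log axis) of the 10 members in order of their mean, with Ang II libraries in red on the left and saline libraries in blue on the right of each gene. Open triangles mark libraries with 0 counts, drawn at the bottom of the axis. Rgs5 lies between 16.4 and 18.0 CPM per kb in every library, and Cnn1 lies at or below 0.208.

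Relative to summed endothelial markers, the summed mural genes differed between groups by less than the spread between libraries. The 12 endothelial markers summed to 349.8 ± 32.3 CPM in the Ang II group (n = 4, SD) against 355.5 ± 15.6 CPM in the saline group (n = 3, SD). Counts of the 5 pericyte members over counts of the endothelial markers gave 0.350 ± 0.0285 in the Ang II group (n = 4, SD) against 0.339 ± 0.0302 in the saline group (n = 3, SD). For the 4 contractile members the same ratio was 0.0489 ± 0.00868 in Ang II and 0.0479 ± 0.0102 in saline (SD, n = 4 and 3). No test was made of these ratios. Flt1 and Kdr held most of the endothelial sum. Their means were 135.8 and 109.3 CPM in Ang II, against 140.5 and 116.5 CPM in saline. Rgs5 held most of the pericyte counts. Within the contractile counts, Acta2 and Myh11 lay on opposite sides, at log2 fold changes of 0.37 and -0.42, so the ratio hides their differences. Of the endothelial markers 0 of 12 passed, with Slco1a4, a transporter gene of barrier endothelium, at a log2 fold change of 0.43 ± 0.15, the growth receptor gene Tek at 0.25 ± 0.22 and Kdr, the main receptor for vascular endothelial growth factor, at -0.09 ± 0.10 (SE).

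Other pericyte genes showed the same lack of calls. Of the 20 listed, 18 were tested, 0 passed in either direction, 10 lay above 0 and 8 below, with a median log2 fold change of 0.03. Cox4i2, a respiratory subunit gene enriched in pericytes, was at 21.1 ± 3.86 CPM in the Ang II group (n = 4, SD) against 24.7 ± 0.965 CPM in the saline group (n = 3, SD), and the scavenger receptor gene Colec12 had a log2 fold change of 0.53 ± 0.42 (SE). Des, an intermediate filament gene of pericytes and of all muscle, reached 21.9 CPM in Ang II replicate 3, where the remaining 6 libraries had 1.68 to 3.53 CPM. Skeletal muscle markers summed to 265.5 CPM in that library and to 4.03 to 23.7 CPM in the remaining 6, and their part in the Des value was not tested. Of the 10 skeletal markers 9 were tested, 0 passed and 0 were at 0 in every library. The fast myosin genes Myh4 and Myh1 and the troponin gene Tnni2 reached 85.0, 23.8 and 21.3 CPM in Ang II replicate 3, and at most 1.57, 1.93 and 0.905 CPM elsewhere.

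Other smooth muscle genes likewise gave 0 calls. Of 20 listed, 16 were tested, with 7 above 0, 9 below and a median log2 fold change of -0.08. The groups did not overlap in 1 of the 16, Smtn, which encodes the contractile protein smoothelin and was at 9.92, 9.04, 9.93 and 10.2 CPM in Ang II replicates 1 to 4, against 10.7, 11.6 and 13.0 CPM in saline replicates 1 to 3. Every Ang II library was below every saline library, with a log2 fold change of -0.27 ± 0.15 (SE, edgeR adjusted p = 0.982), and 2.73% of all genes tested separated in this direction. Cald1, the caldesmon gene, was at 34.1 ± 4.17 CPM in the Ang II group (n = 4, SD) against 23.9 ± 7.11 CPM in the saline group (n = 3, SD), and its log2 fold change was 0.51 ± 0.18 (SE, edgeR adjusted p = 0.982). In the edgeR fit without the filter on low counts Cald1 passed, with an adjusted p of 0.0421, and no other smooth muscle gene of the lists did. That fit called 98 of 30590 genes, where the main fit called 0, and the groups overlapped in Cald1. Lmod1, the smooth muscle leiomodin gene, had a log2 fold change of 0.45 ± 0.21 (SE, edgeR adjusted p = 0.982). Tpm2, a tropomyosin gene shared with skeletal muscle, reached 26.1 CPM in Ang II replicate 3 and at most 5.39 CPM elsewhere, beside the skeletal markers above.

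The 4 smooth muscle genes too low to test were Actg2, Myocd, Pln and Kcnmb1. Myocd, which encodes myocardin, the cofactor that drives contractile genes through CArG boxes, had 8, 7, 5 and 12 counts in Ang II replicates 1 to 4 and 0, 3 and 2 counts in saline replicates 1 to 3. The shares of separated genes given here cover tested genes alone, so none applies at these low counts, and in the fit without the filter on low counts the edgeR adjusted p was 0.837. Actg2, the enteric smooth muscle actin gene, had 0, 0, 1 and 0 counts in Ang II and 4, 8 and 2 counts in saline, with an adjusted p of 0.646 in that fit. The serum response factor gene Srf, by contrast, was well detected, at 29.7 CPM in Ang II and 30.4 CPM in saline on average, with a log2 fold change of -0.03 ± 0.12 (SE).

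Ligands, receptors and targets of the platelet-derived growth factor and Notch pathways, which hold mural cells to vessels, gave 0 calls among 18 tested genes, 8 above 0 and 10 below, with a median log2 fold change of -0.03. Their summed level did not overlap between groups, at 397.2 to 434.7 CPM in Ang II and 438.8 to 479.4 CPM in saline, and no test was made of it. Jag1 alone took 105.7 to 145.9 CPM of this sum in Ang II and 132 to 181.5 CPM in saline. Pdgfb, the endothelial ligand of the Pdgfrb receptor, was at 4.37, 2.81, 3.29 and 4.95 CPM in Ang II replicates 1 to 4, against 6.07, 3.71 and 5.38 CPM in saline replicates 1 to 3. Its groups overlapped, with a log2 fold change of -0.39 ± 0.26 (SE, edgeR adjusted p = 0.982). Jag1, a Notch ligand also made by retinal neurons and glia, was at 120.9 ± 17.6 CPM in the Ang II group (n = 4, SD) against 150.8 ± 26.8 CPM in the saline group (n = 3, SD), and its log2 fold change was -0.32 ± 0.13 (SE, edgeR adjusted p = 0.982). The receptor gene Notch1 had a log2 fold change of -0.18 ± 0.12 (SE). Of these 18 genes, the groups did not overlap in Hey2, a Notch target at 12.6 to 14.9 CPM in Ang II and 11.8 to 12.4 CPM in saline, higher in every Ang II library as in 3.18% of all genes tested. Among other Notch targets, Hes1 was at -0.19 ± 0.16 and Heyl at -0.03 ± 0.27 on the log2 scale (SE).

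Close relatives of the members gave 0 calls among 14 tested genes. Some also stand in other lists used here, among them Rgs4 with the other pericyte genes and Cnn2 with the other smooth muscle genes. The cytoskeletal actin genes Actb and Actg1 were at 109.4 and 113.3 CPM per kb over the 7 libraries, far above the 4.96 CPM per kb of Acta2, and had log2 fold changes of -0.13 ± 0.09 and -0.07 ± 0.09 (SE). The nonmuscle myosin genes Myh9 and Myh10 were at 6.09 and 17.1 CPM per kb, above the 0.996 of Myh11, with log2 fold changes of -0.12 ± 0.09 and -0.05 ± 0.10 (SE). Cnn3 and Tagln3, the relatives of Cnn1 and Tagln found in neurons and other cells, were at 37.0 and 67.3 CPM per kb. Cnn3 had a log2 fold change of 0.25 ± 0.11 and Tagln3 of -0.01 ± 0.14 (SE), while Cnn2 was at 0.76 ± 0.43 and Tagln2 at 0.34 ± 0.39 (SE). Acta1, the skeletal actin gene, reached 40.1 CPM in Ang II replicate 3 and at most 8.11 CPM elsewhere, and Actc1, the cardiac one, had a log2 fold change of 0.59 ± 0.37 (SE). Rgs4, a relative that lies near Rgs5 on chromosome 1, was at 19.6 CPM per kb with a log2 fold change of -0.08 ± 0.12 (SE). It was the largest part of the other pericyte sum. On average it took 59.1 of 144.5 CPM in Ang II and 62.5 of 146.9 CPM in saline.

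**Figure D4:**
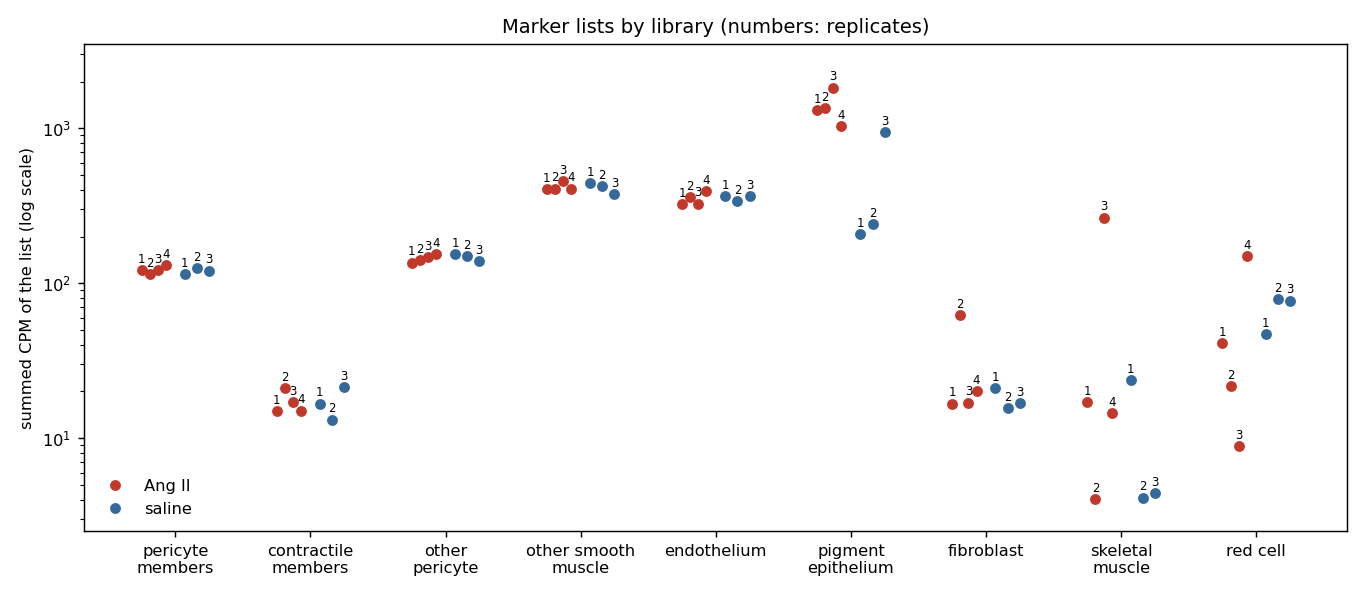
Summed CPM (log axis) of 9 marker lists in each library, Ang II in red on the left and saline in blue on the right of each list, with replicate numbers above the points. The pericyte, contractile, other smooth muscle and endothelial sums overlap between groups. Of the lists drawn, the pigment epithelium sums, which include melanocyte markers, do not overlap. Skeletal markers reach 265.5 CPM in Ang II replicate 3, and fibroblast markers reach 62.5 CPM in Ang II replicate 2.

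Within each role the libraries were not ordered alike. Acta2 was highest in Ang II replicate 2, Myh11 and Tagln in saline replicate 3 and Cnn1 in Ang II replicate 3. Among the pericyte members, Ang II replicate 4 was highest for Pdgfrb, Rgs5 and Kcnj8 and lowest for Abcc9. The coefficient of variation over the 7 libraries was 28.6% for Acta2, 25.1% for Myh11 and 27.0% for Kcnj8, against 13.5% for Pdgfrb and 17.6% for Abcc9, with 8.35%, 9.04%, 12.9%, 5.14% and 7.27% from counting alone. Likeness to the members was measured as the mean absolute difference of standardized log2 CPM over the 7 libraries, among 13436 named genes with a mean of at least 1 CPM. The patterns nearest to the mean of the pericyte members were those of Foxd1 (0.160), Glipr2 (0.216) and Acvrl1 (0.278). Those nearest to the mean of the contractile members were Sord (0.208), Rpap3 (0.211) and Cyfip1 (0.229). Tagln and Cnn1, with too few reads to test, weighed as much in that mean as Acta2 and Myh11. With 7 libraries and this many candidates, such nearness is a description alone.

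Fibroblast markers, from connective tissue cells, summed to 16.7, 62.5, 16.9 and 20.2 CPM in Ang II replicates 1 to 4 and to 21.1, 15.6 and 16.8 CPM in saline replicates 1 to 3. Of the 8 listed, 5 were tested and 0 passed, among them the collagen gene Col1a1 at a log2 fold change of 0.59 ± 0.33 and Fbln1 at 2.03 ± 1.56 (SE). Ang II replicate 2, the highest, was also the library with most Acta2, and the part of fibroblasts in it was not tested. Red cell markers summed to between 8.92 and 150.1 CPM in Ang II and between 46.9 and 78.5 CPM in saline, so the groups overlapped. Of the red cell genes, Alas2 was at -0.52 ± 0.56, Hba-a2 at -0.61 ± 0.85 and Hba-a1 at -0.32 ± 0.93 on the log2 scale (SE). Müller glia markers, from the main glia of the retina, gave 0 calls among 8 tested, with Clu at a log2 fold change of 0.31 ± 0.12, Apoe at 0.38 ± 0.22 and the potassium channel gene Kcnj10 at -0.20 ± 0.13 (SE). If the mice are ApoE-/-, as the series text gives, the level of Apoe may not mark these cells. Of the 10 rod genes 0 passed and 10 lay below 0, with the phototransduction gene Pde6g at a log2 fold change of -0.29 ± 0.09, the rod regulator gene Nrl at -0.21 ± 0.09 and the disc protein gene Rom1 at -0.21 ± 0.09 (SE).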

How the data were processed

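RNA of mouse retina was sequenced in 4 Ang II and 3 saline libraries. The authors deposited raw counts per gene, not normalized, with a gene model length in bases, and the gene length is another column of the deposited table. The submitters' processing notes name HISAT2 2.0.5, featureCounts 1.5.0-p3, CASAVA and the build mm10, with no role or settings. The annotation and counting rules are not given in the sources used here. Each column carries the description label of its sample.

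The main test was the two-sided quasi-likelihood test of edgeR 4.0.16 (R 4.3.3, robust, filterByExpr, TMM) fitted to the 7 libraries by group, with Benjamini-Hochberg adjustment over all genes tested. The SE was back-calculated from F and the log2 fold change, and the 95% interval uses the t distribution of that fit. DESeq2 1.42.0 and limma 3.58.1 were alternatives. On counts simulated for Ang II against saline, 77% of 100 genes changed by a log2 fold of 1 and 98% of 100 changed by 2 were called among 16756 genes. In all, 186 genes were called there, 11 of them unchanged, whereas the data gave 0 calls. Adjusted p depends on how many genes change, so these shares do not carry over to the members. The members and lists were chosen with earlier results of these data known. Named are all members and close relatives, the 3 genes of smallest p in each list and the 3 nearest patterns per role. Others, among them Actg2, Myocd, Pln, Kcnmb1, Srf, Hes1, Heyl, Hey2 and Tpm2, were chosen after their values were seen. Exon overlap and shared 50-base words used GENCODE M21, and promoter letters came from RefSeq.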

Additional observations from a re-analysis of the deposited data

Results flagged for a closer look

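Results were checked for a library far from the rest among the 4 Ang II libraries, using Dixon's ratio of the gap to the range at its 95% critical value, for 28 quantities. Chance flags about 1 in 20 such groups. For Abcc9 the ratio was 0.906, because Ang II replicate 4 had 9.66 CPM and the other 3 had 11.8 to 12.0 CPM. The sum of the other smooth muscle genes gave 0.894, with 454.6 CPM in Ang II replicate 3 and 402.7 to 408.2 CPM in the other 3. Ppp1r12b, Tpm1, Mylk and Synpo2 held most of this sum. Tpm2 took 26.1 CPM of it in Ang II replicate 3 and at most 3.35 CPM in the other 3, whereas Mylk and Synpo2 were lowest there among the 4 Ang II libraries. Skeletal muscle markers gave 0.950, with 265.5 CPM in the same library and at most 17.0 CPM in the other 3. Fibroblast markers gave 0.925, with 62.5 CPM in Ang II replicate 2 and at most 20.2 CPM in the other 3. In that library Fbln1, a matrix gene, took 38.1 CPM of the sum.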

How the results depend on the processing

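No member was called under any of 13 alternatives. Of 104 log2 fold changes of the 8 tested members, 92 kept their direction and 12 turned, and the smallest adjusted p, from limma-voom, was 0.175. The cause of the turns was not tested. Pdgfrb was -0.049 with limma-voom, -0.056 with the replicate block and -0.056 to 0.134 with 1 library left out. Rgs5 was -0.003 with the replicate block, -0.003 without Ang II replicate 4 and -0.016 to 0.037 over all libraries left out. Cspg4 was -0.042 with limma-voom and -0.038 to 0.181 with 1 library left out. Abcc9 was 0.151 with limma-voom and -0.271 to 0.09 with 1 left out, and Notch3 was -0.249 with limma-voom and -0.184 to 0.067 with 1 left out, with 0.042 without saline replicate 1. Acta2 (0.177 to 0.587), Kcnj8 (0.047 to 0.518) and Myh11 (-0.616 to -0.269) kept their direction under all 13.

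The count of all genes called was 0 in edgeR, where 789 had an unadjusted p under 0.05. It was 98 without the filter on low counts, 35 with DESeq2, 142 with limma-voom, and 0 to 117 with 1 library left out, the 117 without saline replicate 3. Members called with 1 library left out numbered 0 to 0. The median over the members was -0.029 to 0.079 with 1 library left out and -0.016 with the replicate block. Leaving out 1 library gave log2 differences of -0.106 to 0.192 for the contractile to endothelial ratio and -0.01 to 0.115 for the pericyte one. Both groups carry replicate numbers 1 to 3, and no label states a pairing. Same-numbered libraries did not deviate together across genes (r = -0.069, -0.021 and 0.046). With so few libraries this cannot exclude a shared batch or origin, and the main test assumed no pairing. The replicate block, fitted on these 6 libraries, called 57 genes and 0 members. Tagln and Cnn1, left out by the filter, are not among these values.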

Other observations

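The 2 contractile genes with enough reads lay on opposite sides, and their ratio was looked at after these values were seen. The ratio of Acta2 to Myh11 counts took the values 1.54, 1.92, 1.72 and 0.862 in Ang II replicates 1 to 4, against 0.699, 1.0 and 0.913 in saline replicates 1 to 3. In 3 of 4 Ang II libraries the ratio exceeded every saline library, and Ang II replicate 4 lay inside the saline range. The means were 1.51 ± 0.460 in the Ang II group (n = 4, SD) against 0.871 ± 0.155 in the saline group (n = 3, SD). No test was made, since the pair was chosen for this difference.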
